A study of Mus musculus with 18 samples.

Results

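Control LSK cells grown with DL1, read here as the Notch ligand Delta-like 1, were compared with control LSK cells grown without it. LSK cells are bone marrow cells that lack lineage markers and carry cKit and Sca1, a population that holds the blood stem cells and multipotent progenitors. All 6 samples came from C57Bl/6 mice labelled normal, as distinct from irradiated. Each sample began as 200 LSK cells from a single mouse, kept for 6 days in mouse stem cell factor, human Flt3 ligand, interleukin-11 and interleukin-6. They were then put through the LSK sort once more, so the RNA is that of cells that kept the gate. There were 3 samples without and 3 with DL1. The labels neither spell out DL1 nor say whether it was given on a plate, on cells or in solution, and they do not say whether samples with the same number share a mouse. The other cultured groups of the study, 3 samples without and 3 with DL1, came from mice that had received 2.5 Gy of Cs-137 radiation and had recovered for at least 9 weeks, and they are used here for comparison. Of the 25629 gene rows, 11972 had a mean of at least 1 FPKM (fragments scaled by transcript length and by library size) over the 6 control samples and make up the genes described here. The last row inside that limit had a mean just above 1 FPKM and the first outside it one of 0.999 FPKM.

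Notch receptors sit on the cell surface. When a ligand of the Delta or Jagged family on another cell pulls on the receptor, ADAM proteases and then gamma-secretase cut it, and the freed inner part enters the nucleus, joins RBPJ and Mastermind and switches on target genes such as Hes1. In blood progenitors this signal is best known for starting the T cell programme and for holding back myeloid and B cell fates. The transcription factor C/EBPα, which the series title sets beside Notch, drives the myeloid course.

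FPKM, which are already scaled by library size, summed to between 544392 and 576680 per cultured sample. The control libraries had relative depths of 0.756 to 1.09 of control replicate 1, read from the steps of the lowest values. The shallowest cultured library was irradiated replicate 2 with DL1, at 0.488. Genes of the gate were present. Kit, the gene of cKit, was at 36.5, 36.6 and 31.7 FPKM in the 3 samples without DL1 and 38.7, 38.1 and 40.2 FPKM with it. Ly6a, the gene of Sca1, was at 496, 432 and 561 and 596, 589 and 604 FPKM. The genes of 4 lineage markers that such a sort removes, Cd3e, Cd4, Cd8a and Ly6g, stayed under 1 FPKM in every one of the 6 samples. Itgam, which encodes the lineage marker Mac-1, did not: it was at 145, 115 and 167 FPKM without and 97.8, 113 and 99.8 FPKM with DL1, so its transcript was abundant in both groups. None of the 6 tested genes of the sort list passed the test described below, and 2 were higher and 2 lower at an unadjusted p under 0.05 in limma. Collagen genes of stromal cells were near 0, with Col1a1 between 0.0405 and 0.247 FPKM and Pdgfra at no more than 0.0059 FPKM in these 6 samples.

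DL1 was accompanied by a broad change. By limma on log2(FPKM + 1), with adjustment over all genes and a threshold of 0.05, 1685 genes (14.1% of those tested) were higher with DL1 and 1452 (12.1%) were lower, together 26.2%. Most changes were small: 137 genes rose and 216 fell by at least 1 on the log2 scale, and 25 rose and 41 fell by at least 2. The 3 values of each group did not overlap for 3120 of the 3137 genes called, but this was also so for 48.2% of all genes tested. The balance of directions depends on scaling: with median-ratio scaling 1268 genes were higher and 1683 lower, so that the share of higher calls was 43.0% instead of 53.7%. The filter takes the mean over both groups, so a gene can pass through 1 group alone, which favours genes that differ. Of 160 genes with a mean under 1 FPKM without DL1, 113 rose. Of 150 genes with a mean under 1 FPKM with DL1, 109 fell. Counts and medians of the gene lists below therefore describe the members that passed the filter and are not a test of the lists. Log2 differences below are on the log2(FPKM + 1) scale, which understates the change of genes at low levels.

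The largest rises were in genes of cytotoxic granules and mast cell granules (Mcpt1, Gzmc, Mcpt2, Gzmb, Mcpt4 and Gzma) and in the T lineage genes Cd7 and Tcf7. The other 7 of the 15 that rose most were Itgax, Adgrg5, Asb2, Hic1, Cdh1, Ccl5 and LOC100504495. The 15 that fell most were led by Fn1, Gpnmb, Saa3, Trem2, Apoe, Msr1 and Stab1, genes known from macrophages. The others were C5ar1, F13a1, Chil3, Mrc1, LOC100038947, Lrg1, Tmem37 and Grb10. Grb10, an imprinted adaptor of growth factor receptors, fell from 20.6, 21.2 and 15.2 FPKM to 2.9, 2.91 and 2.28 FPKM.

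Among the direct targets of nuclear Notch, 8 of 16 passed the filter, of which 6 rose and none fell, with no member lower at an unadjusted p under 0.05. Their median difference was 0.74, against 0.04 over all genes tested, of which 14.1% rose. Hes1 and Gata3 passed the filter only through the samples with DL1, where they are high, and 8 members did not pass it. Hes1, the transcriptional repressor that is the best known Notch target, was at 0.585, 0.807 and 0.52 FPKM without DL1 and 3.03, 2.55 and 3.27 FPKM with it. All 3 values with DL1 lay well above those without, and the log2 difference was 1.27 (SE 0.12, adjusted p 1.44e-05). Nrarp, a feedback inhibitor of the pathway, was at 1.92, 1.9 and 1.82 FPKM and 3.29, 3.04 and 3.46 FPKM, a difference of 0.57 (SE 0.13, adjusted p 0.00628). Hes6 rose by less, from 20.2, 21.4 and 23.2 to 25.8, 25 and 27.5 FPKM, and its call was lost without control replicate 1 (adjusted p 0.0603) or without DL1 replicate 3 (adjusted p 0.0581), in a range of 0.00827 to 0.0603 over all alternatives. Myc and Id3 did not pass, at differences of -0.02 and -0.37. Of the 8 members below the filter, Dtx1, a ubiquitin ligase of the pathway, was listed at 0 in 2 samples and at 0.0209 FPKM in 1 without DL1, and at 0.479, 0.313 and 0.525 FPKM with it. Hey1 was at 0.0662, 0.0438 and 0.0356 and 0.221, 0.289 and 0.412 FPKM. These 2 genes were too low to be tested, and in both the groups did not overlap. Hes5 was lower with DL1 (0.175, 0.424 and 0.094 against 0.0896, 0.0803 and 0.0604 FPKM), while Hey2 was listed at 0 in all 6 samples.

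Genes of the pathway's own machinery moved both ways. Of 31 tested members 9 fell and 4 rose, against 12.1% and 14.1% of all genes tested. Called or not, 16 members lay lower and 15 higher, with a median difference of -0.06. Over all genes tested 4838 lay lower and 7134 higher. Notch1, the receptor of the T cell programme, was at 13.7, 12.3 and 13 FPKM without DL1 and 9.33, 9.1 and 8.99 FPKM with it, 3 values below all of the controls (-0.46, SE 0.09, adjusted p 0.00264). Notch2, the other receptor above the filter, did not pass (15.2, 13.9 and 13.6 against 13.3, 12.3 and 13.8 FPKM). Of the proteases, Adam10, which makes the first cut, fell from 76.2, 69.6 and 66.8 to 47.1, 50.3 and 48.8 FPKM (-0.53, SE 0.05, adjusted p 2.19e-05). The gamma-secretase subunit gene Psen2 fell by 0.54, from 16.8, 15.8 and 18.1 to 11.3, 11.7 and 11 FPKM. The glycosyltransferase gene Poglut1, whose enzyme modifies the receptor before it reaches the surface, fell by 0.28. Dtx4, a relative of Dtx1, fell from 17.2, 16.9 and 15.4 to 9.19, 10 and 9.36 FPKM. Rbpj, the DNA-binding partner, was at 28.4, 25.5 and 25.3 FPKM without DL1 and 24.7, 25.5 and 25.7 FPKM with it, overlapping groups with a difference of -0.06.

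Ligand genes were low. The transcript of the ligand gene Dll1 itself was listed at 0, 0.0140 and 0.0114 FPKM without DL1 and at 0.0758, 0.117 and 0.109 FPKM with it. These levels are far below the limit for testing, and the 3 values with DL1 were above all of those without. Jag1 was at 0.286, 0.342 and 0.38 FPKM without and 0.188, 0.144 and 0.0775 FPKM with DL1. Dlk1, a Delta-like protein that lacks the domain by which ligands bind Notch, rose from 0.125, 0.243 and 0.242 to 1.86, 2.05 and 3.57 FPKM (1.51, SE 0.14, adjusted p 1.42e-05). Dlk1 is imprinted and lies in one cluster with the noncoding gene Rian, which also rose, from 0.586, 0.374 and 0.597 to 2.81, 2.98 and 5.08 FPKM.

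Of 34 listed early T lineage genes 14 passed the filter, and 9 of these rose and 2 fell, against 14.1% and 12.1% of all genes tested, with a median of 0.68. Gata3 and Tox are among the 9 and passed only through the samples with DL1. Tcf7 and Gata3, which both rose, are also in the list of Notch targets, so the counts of these lists overlap. Tcf7 encodes TCF1, a factor that Notch turns on at the start of the T cell programme. It was at 4.71, 3.13 and 5.45 FPKM without DL1 and 36.6, 29.5 and 50.8 FPKM with it (2.87, SE 0.25, adjusted p 7.66e-06). All 3 DL1 values were far above the controls, with replicate 3 the highest in both groups. Gata3, its companion in T cell specification, went from 0.259, 0.104 and 0.23 to 1.53, 1.61 and 2.7 FPKM, a difference of 1.28 (SE 0.16). Cd7, a surface protein of early T and natural killer cells, was at 4.33, 2.64 and 4.33 FPKM and 35, 30.6 and 41 FPKM, a difference of 2.95 (SE 0.27, adjusted p 1.12e-05). Tox, a nuclear factor of T and innate lymphoid development, rose from 0.178, 0.118 and 0.137 to 2.17, 2.06 and 2.97 FPKM. Lck, the kinase next to the T cell receptor, rose from 1.6, 1.26 and 1.54 to 3.61, 3.24 and 4.64 FPKM.

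Genes of later T cell steps were low in both groups. Bcl11b, which commits cells to the T lineage, was at no more than 0.0297 FPKM in any of the 6 samples. Ptcra, the pre-T cell receptor chain, was at 0.218, 0.486 and 0.346 FPKM without and 0.595, 0.326 and 0.42 FPKM with DL1, and Il2ra at 0.353, 0.243 and 0.41 and 0.505, 0.363 and 0.606 FPKM, with overlapping groups in both. Rag1, needed to cut receptor genes, was at no more than 0.00559 FPKM. Below the filter, Cd3g was at 0.0366, 0.0967 and 0.0787 FPKM without and 1.5, 1.38 and 1.9 FPKM with DL1, and the adaptor Trat1 at 0.0561 FPKM in 1 sample and 0 in 2 without and 1.21, 0.825 and 1.8 FPKM with it. Both genes thus had groups that did not overlap, while Cd3e stayed at 0.105 FPKM or less. Among the members that fell, Thy1 went from 8.4, 12.2 and 10.1 to 2.45, 3.09 and 2.02 FPKM and Cd28, a costimulatory receptor, from 6.8, 5.53 and 7.06 to 1.04, 1.28 and 0.815 FPKM (-1.87, SE 0.13, adjusted p 1.57e-06).

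**Figure D1:**
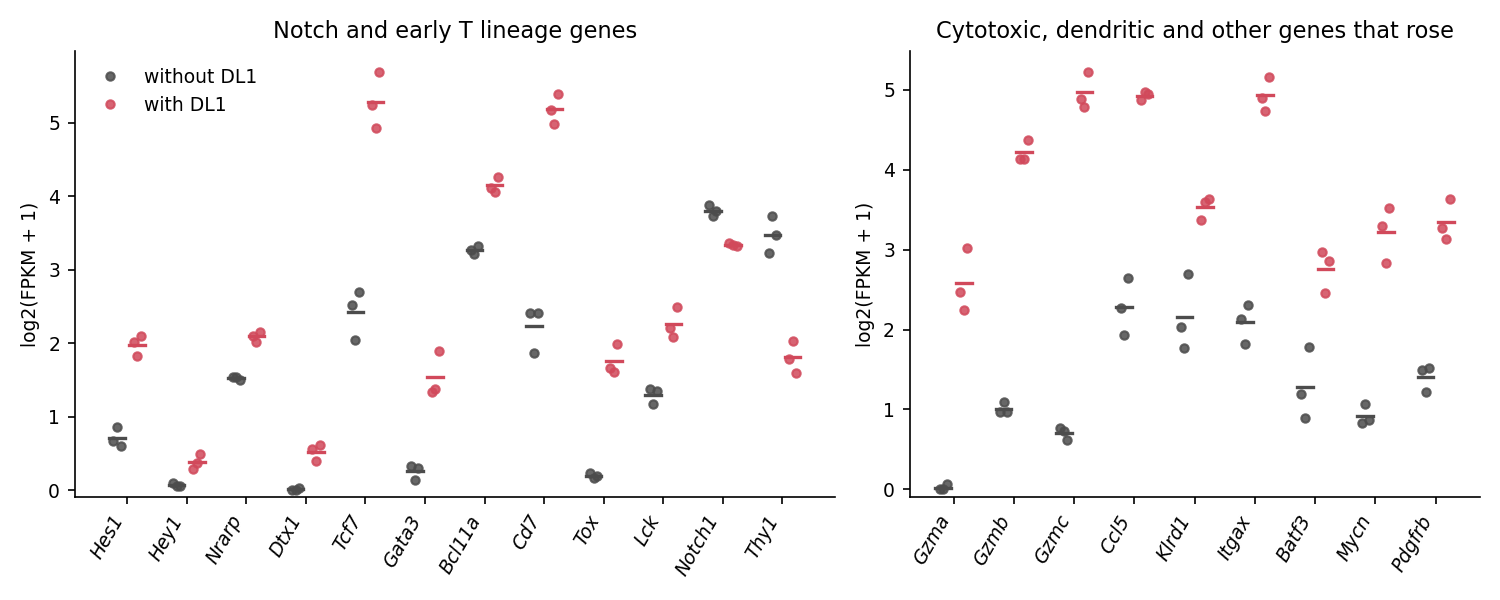
Levels as log2(FPKM + 1) in each of the 6 control samples, grey without DL1 and red with DL1, with a line at the mean of 3. Each gene but Notch1 and Thy1 is higher in all 3 samples with DL1 than in any without.

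Of the lymphoid and B lineage genes, 7 of 14 tested rose and 2 fell, against 14.1% and 12.1% of all genes tested. The median was 0.21. Flt3, the receptor for one of the cytokines in the medium and a mark of lymphoid-primed progenitors, was at 14.2, 13 and 16.3 FPKM without DL1 and 26.9, 27.2 and 33.3 FPKM with it, a difference of 0.96 (SE 0.13, adjusted p 0.000195). Satb1, a chromatin organiser of lymphoid progenitors, rose from 3.5, 3.23 and 3.73 to 7.12, 7.43 and 8.71 FPKM. The chemokine receptor gene Ccr7 rose from 7.08, 5.14 and 9.66 to 14, 13.6 and 15.5 FPKM. Il7r did not pass, at 1.33, 1.04 and 1.87 FPKM and 0.764, 0.551 and 1.06 FPKM. The B cell factors Ebf1 and Pax5 were listed at 0 in all 3 samples with DL1 and reached at most 0.0331 FPKM without.

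Genes of cytotoxic and innate lymphoid cells had the highest median of the lists, 1.96, with 6 of 8 tested members higher, against 14.1% of all genes tested, none lower and none lower at an unadjusted p under 0.05. Gzma and Gzmc passed the filter only through the samples with DL1, and 10 of the 18 listed genes did not pass it. Granzymes are serine proteases that killer lymphocytes store in granules. Gzmb was at 0.964, 1.14 and 0.953 FPKM without DL1 and 16.6, 16.6 and 19.7 FPKM with it (3.20, SE 0.08, adjusted p 2e-10). Gzmc was at 0.699, 0.659 and 0.536 FPKM and 28.6, 26.6 and 36.4 FPKM (4.26, SE 0.14, adjusted p 5.11e-09). In both genes the spread within a group was small beside the distance between groups. Gzma was listed at 0 in 2 samples and at 0.0462 FPKM in 1 without DL1, and at 4.54, 3.75 and 7.13 FPKM with it. The chemokine gene Ccl5 rose from 3.83, 2.82 and 5.23 to 28.2, 30.3 and 29.8 FPKM, and Klrd1, the CD94 chain of natural killer receptors, from 3.09, 2.4 and 5.45 to 9.35, 11.1 and 11.4 FPKM. Defining genes of mature killer cells were not seen at such levels: Prf1, the pore protein perforin, reached at most 0.0654 FPKM, Ncr1 at most 0.0261 FPKM and Eomes at most 0.0394 FPKM in the 6 samples. Tbx21 was at 0.0143, 0.0188 and 0.092 and 0.526, 0.524 and 0.62 FPKM.

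Gzmb and Gzmc lie at one end of a cluster of 16 granule protease genes on chromosome 14, with the mast cell proteases at the other end and Ctsg, which encodes the neutrophil protease cathepsin G, between them. Of the 16, 9 passed the filter, and 6 of these rose, 1 fell and 2 did not pass the test. Over all genes tested 14.1% rose and 12.1% fell. Of the 6, Mcpt-ps1, Mcpt1, Mcpt4 and Gzmc passed the filter only through the samples with DL1. Mcpt1, a mucosal mast cell protease, was at 0.109, 0.144 and 0.313 FPKM without DL1 and 12.4, 80.3 and 177 FPKM with it (5.61, SE 0.67, adjusted p 7.12e-05). Mcpt2 was at 1.35, 2.91 and 3.08 and 10.5, 41.8 and 112 FPKM, and Mcpt4 at 0.644, 0.452 and 1.79 and 4.47, 13.9 and 41.4 FPKM. In all 3 the DL1 samples spread widely, with replicate 1 lowest and replicate 3 highest, yet none reached down to the controls. Mcpt8, a basophil protease, did not pass (49.6, 54.4 and 43.2 against 46, 52.3 and 45.6 FPKM), nor did Cma1 with its wider spread (1.42, 3.99 and 5.04 against 1.14, 5.39 and 10.8 FPKM), and both had overlapping groups. Ctsg fell from 774, 834 and 677 to 474, 522 and 445 FPKM. Toward the granzyme end, Gzme, Gzmd and Gzmg stayed under 1 FPKM, yet each was higher in all 3 DL1 samples, as for Gzme at 0.034, 0.0734 and 0.122 against 0.559, 0.44 and 0.55 FPKM. The neighbours of this cluster are close copies of one another, so reads shared between them could be split in ways the table does not show.

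**Figure D2:**
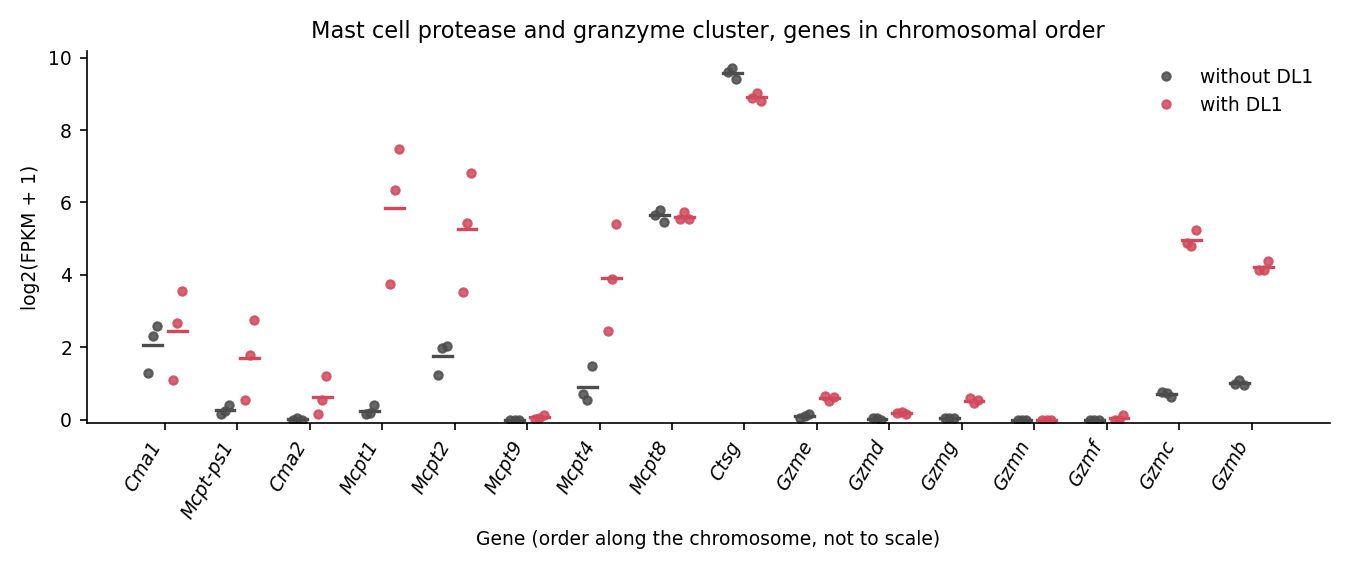
Levels as log2(FPKM + 1) of the 16 protease genes of the chromosome 14 cluster in their order along the chromosome, in each of the 6 control samples with a line at the mean of 3. The granzymes Gzmc and Gzmb and the proteases Mcpt1, Mcpt2 and Mcpt4 are higher in all DL1 samples, the groups of Mcpt8 overlap and Ctsg is lower.

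The 250 bases before the start sites of 5 genes of the cluster are shown because genes that moved up and a gene that moved down lie side by side there. They come from RefSeq on GRCm38.p6, 5′ to 3′ on the strand of each gene. Capitals mark TGTGGT, the core bound by RUNX factors, and TGGGAA, the core bound by RBPJ, on either strand (ACCACA and TTCCCA on the other). Gzmb is at chr14:56262335-56262584 on the minus strand, Gzmc at chr14:56234658-56234907 on the minus strand, Mcpt1 at chr14:56017714-56017963 on the plus strand, Mcpt4 at chr14:56062311-56062560 on the minus strand and Ctsg at chr14:56102575-56102824 on the minus strand.
Gzmb: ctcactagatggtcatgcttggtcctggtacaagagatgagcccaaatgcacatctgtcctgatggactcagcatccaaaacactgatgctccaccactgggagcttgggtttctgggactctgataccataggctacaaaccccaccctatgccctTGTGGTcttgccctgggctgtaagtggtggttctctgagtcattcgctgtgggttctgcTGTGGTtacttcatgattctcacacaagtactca
Gzmc: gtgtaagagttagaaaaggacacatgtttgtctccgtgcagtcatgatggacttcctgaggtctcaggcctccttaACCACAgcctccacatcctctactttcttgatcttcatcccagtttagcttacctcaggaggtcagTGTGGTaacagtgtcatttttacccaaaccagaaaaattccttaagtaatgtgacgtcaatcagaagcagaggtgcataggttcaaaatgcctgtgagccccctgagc
Mcpt1: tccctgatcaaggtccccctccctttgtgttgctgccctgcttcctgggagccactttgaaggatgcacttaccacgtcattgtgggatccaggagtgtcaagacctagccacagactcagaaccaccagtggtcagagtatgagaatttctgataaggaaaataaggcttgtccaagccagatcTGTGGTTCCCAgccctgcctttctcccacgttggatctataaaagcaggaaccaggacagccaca
Mcpt4: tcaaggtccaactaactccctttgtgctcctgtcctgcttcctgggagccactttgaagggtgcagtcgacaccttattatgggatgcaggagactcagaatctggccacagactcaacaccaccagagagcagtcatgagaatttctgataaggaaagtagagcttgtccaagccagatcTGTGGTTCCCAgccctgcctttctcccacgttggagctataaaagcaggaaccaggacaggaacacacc
Ctsg: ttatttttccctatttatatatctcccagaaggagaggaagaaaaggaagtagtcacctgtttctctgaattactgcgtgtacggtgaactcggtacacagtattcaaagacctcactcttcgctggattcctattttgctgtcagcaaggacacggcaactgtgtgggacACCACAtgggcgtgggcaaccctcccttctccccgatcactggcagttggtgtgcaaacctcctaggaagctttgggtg
The RUNX core begins 93 and 34 bases before the start of Gzmb and 174 and 108 bases before that of Gzmc. It begins 65 bases before the start of Mcpt1 and 69 bases before that of Mcpt4, and in both it shares 1 base with an RBPJ core, giving the run TGTGGTTCCCA. This run was noticed in these sequences and then counted: 8 of the 32851 windows in the table hold it. Of the windows of genes tested 4 hold it, 3 of genes that rose and 1 of a gene that fell. The windows of Mcpt1 and Mcpt4 were 81.9% identical over an alignment of 260 columns, so the shared run is part of a wider likeness. Ctsg, which fell, has 1 RUNX core as well, 79 bases before its start. Mcpt8, which did not pass the test, has RUNX cores 188 and 139 bases before its start. Outside the cluster, Lyz2, which fell, has both cores, the RUNX core 66 and the RBPJ core 54 bases before its start. Each core alone is common. The RUNX core was in 11.1% of the windows of genes tested, in 14% of those of genes that rose and in 11.6% of those of genes that fell, and in 14% of all windows in the table. The RBPJ core was in 20.3% of the windows of genes tested, in 20.8% of those of genes that rose, in 20.5% of those of genes that fell and in 21.6% of all windows. These shares were not tested. The windows of the Notch targets Nrarp, Dtx1 and Tcf7 hold neither core, and no window was found for Hes1.

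Other mast cell genes did not follow the proteases as one group. Of 18 tested genes of mast cells, basophils and eosinophils, 6 rose and 2 fell, against 14.1% and 12.1% of all genes tested. The median was 0.29. Of the 6, Mcpt1 and Mcpt4 passed the filter only through the samples with DL1. Cpa3, carboxypeptidase A of mast cell granules, rose from 16.5, 20.7 and 20.4 to 33.6, 55.7 and 81.4 FPKM (1.44, SE 0.23, adjusted p 0.000564), again with DL1 replicate 1 lowest and replicate 3 highest. Ltc4s, the leukotriene C4 synthase, rose from 1.39, 2.27 and 2.34 to 7.72, 7.59 and 7.8 FPKM. Gata2, a factor mast cells need, was at 13.1, 13.6 and 11.6 and 11.8, 12.8 and 13.1 FPKM, and the tryptase gene Tpsb2 at 2.3, 4.31 and 7.01 and 1.41, 7.57 and 14.6 FPKM, with overlapping groups in both. The receptor chain gene Fcer1g, shared by mast cells and macrophages, fell from 201, 176 and 243 to 115, 129.9 and 110.5 FPKM.

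Monocyte and macrophage genes made the clearest fall. Of 28 tested members 24 fell and none rose, against 12.1% of all genes tested, with a median of -1.35 and 1 member higher at an unadjusted p under 0.05. Of the 24, 3 passed the filter only through the samples without DL1. Their summed level was between 2043 and 2749 FPKM in the samples without DL1 and between 997 and 1137 FPKM in those with it. In RNA of whole samples, fewer cells of a type and less RNA per cell cannot be told apart. Gpnmb, a membrane glycoprotein of macrophages, was at 70, 53.4 and 92.6 FPKM without DL1 and 4.37, 7.83 and 5.9 FPKM with it (-3.37, SE 0.20, adjusted p 6.94e-07). Trem2, a lipid-sensing receptor, went from 21.3, 16.7 and 27 to 0.879, 2.05 and 1.21 FPKM, and Apoe, a lipid carrier, from 181, 149 and 243 to 19.5, 23.6 and 21.1 FPKM. For these 3 genes control replicate 2 was the lowest and control replicate 3 the highest without DL1, and every DL1 sample was far below the 3. F13a1, a coagulation factor chain made by monocytes, fell from 304, 268 and 282 to 47.5, 58 and 40.4 FPKM, the scavenger receptor gene Msr1 from 16.6, 11.4 and 17.6 to 1.28, 1.26 and 1.6 FPKM and the mannose receptor gene Mrc1 from 6.29, 3.91 and 8.63 to 0.139, 0.262 and 0.302 FPKM. Csf1r, the receptor of macrophage growth factor, fell from 153, 121 and 181 to 52.3, 65.5 and 46.5 FPKM (-1.45, SE 0.17).

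Not all genes of the list moved so far. Spi1, which encodes the myeloid and lymphoid factor PU.1, was at 145, 147 and 165 FPKM without and 167, 173 and 171 FPKM with DL1 and did not pass (0.16). Itgam, given above, did not pass either (-0.44, adjusted p 0.0651), and nor did Cd68 and Lgmn. Outside the list, Fn1, the matrix protein fibronectin that macrophages also make, had the largest fall of all named genes, from 21.6, 18 and 19.7 to 0.572, 0.93 and 0.466 FPKM (-3.65, SE 0.17, adjusted p 2.79e-07). Thbs1, which encodes thrombospondin-1, fell from 185, 182 and 150.4 to 42, 59.2 and 48 FPKM and the acute phase gene Saa3 from 508, 479.6 and 724 to 52.3, 77.8 and 39.4 FPKM.

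Granule genes of neutrophils and their progenitors fell too, in 17 of 22 tested members, against 12.1% of all genes tested, with a median of -0.67. Of the 17, Ltf passed the filter only through the samples without DL1. In this list 1 gene rose, Nkg7, which killer lymphocytes also express. The summed level of the listed genes was between 8931 and 9124 FPKM without DL1 and between 5098 and 5452 FPKM with it. Ngp, which encodes a protein of the later granules, was at 39.5, 39.2 and 48.9 FPKM without and 7.43, 8.16 and 9.77 FPKM with DL1 (-2.20, SE 0.21, adjusted p 1.28e-05). Ltf, which encodes lactoferrin, went from 4.66, 4.82 and 5.53 to 0.307, 0.421 and 0.368 FPKM. Lcn2, an iron-binding protein of the same granules, went from 124, 115 and 117 to 58.3, 61.6 and 55.9 FPKM. Lyz2, the lysozyme of neutrophils and macrophages, went from 1969.9, 1629 and 2346 to 387, 509.9 and 340.4 FPKM, and its near copy Lyz1 from 244, 212 and 294 to 47.5, 63.7 and 42.8 FPKM, a pair whose reads may be shared. Genes of the earlier granules had smaller differences. Mpo, myeloperoxidase, was at 1647, 1683 and 1334 FPKM and 1003, 1099.6 and 1049 FPKM (-0.56, SE 0.10), and Elane, neutrophil elastase, at 518, 538 and 473 and 299, 301 and 369 FPKM. S100a8 missed the threshold at 437, 471 and 458 against 311, 289.5 and 357 FPKM (adjusted p 0.0523), although its groups did not overlap. Macrophage genes fell in the same samples, and their part in the fall of shared genes such as Lyz2 was not tested.

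Of the 7 C/EBP factors, all tested, 3 fell and none rose, against 12.1% and 14.1% of all genes tested. None was higher at an unadjusted p under 0.05 in limma. Cebpa, the factor that drives the granulocyte and monocyte course, was at 50.4, 55.3 and 49.5 FPKM without DL1 and 44, 44.3 and 41.1 FPKM with it, lower in all 3 samples by -0.26 on the log2 scale (SE 0.08, adjusted p 0.0397). This call was lost without control replicate 1 or 2, any of the 3 DL1 samples or irradiated replicate 2 with DL1, with adjusted p values of 0.0537 to 0.135. Over all alternatives its adjusted p ran from 0.00874 to 0.135 and its difference from -0.21 to -0.30. Cebpb, active in macrophages and emergency granulopoiesis, fell from 29.6, 30.2 and 36.6 to 17.5, 19.6 and 18.1 FPKM (-0.77, SE 0.25, adjusted p 0.0383). Its call was lost when any one of the 6 control samples was left out, with adjusted p values of 0.0670 to 0.111, in a range of 0.000322 to 0.111 over all alternatives. The SE comes from a spread shared with the irradiated cultures, where Cebpb was at 20.7, 23.4 and 52.2 FPKM with DL1. Cebpd fell from 19, 18.1 and 20.2 to 13.6, 14 and 11.9 FPKM (-0.51, SE 0.09, adjusted p 0.00161) and kept its call under all 19 alternatives. Cebpe, the factor of late granule genes, did not pass, at 13.1, 13.3 and 13 FPKM without and 15.5, 13.1 and 15.7 FPKM with DL1, overlapping groups while Ngp and Ltf differed.

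**Figure D3:**
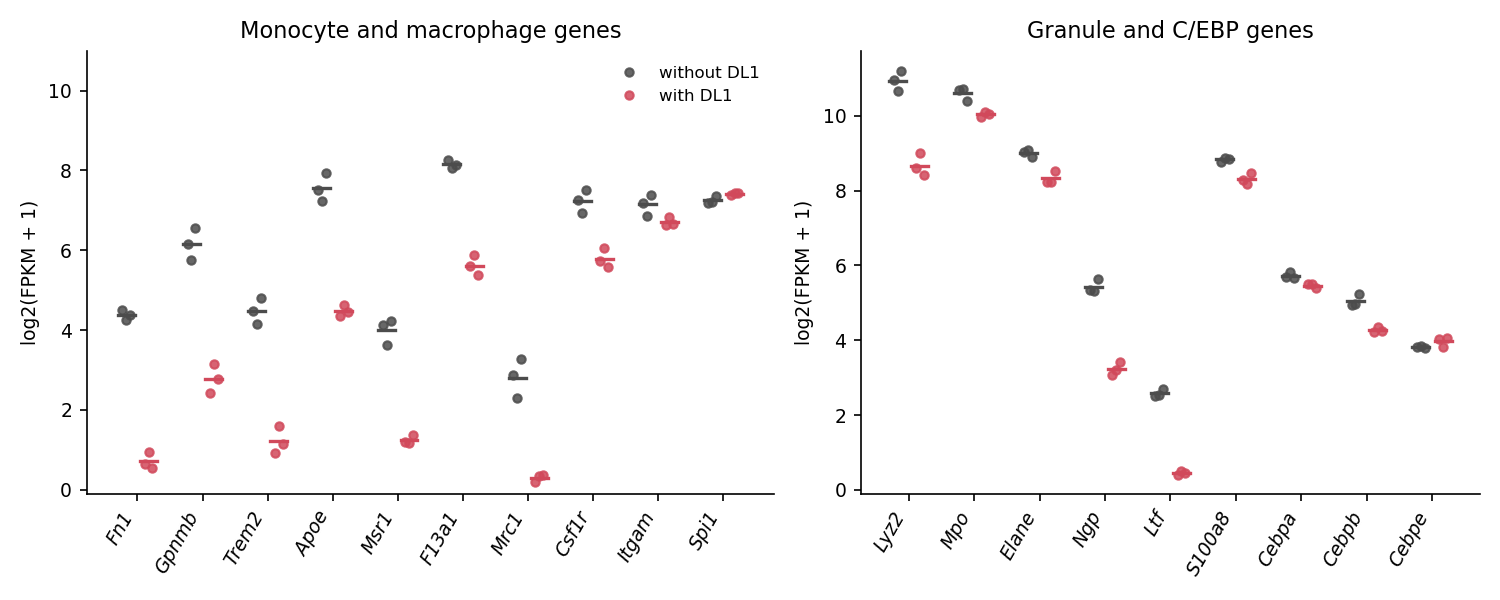
Levels as log2(FPKM + 1) in each of the 6 control samples, grey without and red with DL1, with a line at the mean of 3. The macrophage genes from Fn1 to Csf1r and the late granule genes Ngp and Ltf are well separated, while Spi1 and Cebpe lie close together.

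Dendritic cell genes were mixed. Of 19 tested, 9 rose and 2 fell, against 14.1% and 12.1% of all genes tested, with a median of 0.45. Itgax, the CD11c integrin, was at 3.39, 2.54 and 3.95 FPKM without DL1 and 28.8, 25.6 and 34.6 FPKM with it (2.84, SE 0.22, adjusted p 3.37e-06). Batf3, a factor of cross-presenting dendritic cells, rose from 1.29, 0.852 and 2.43 to 6.83, 4.49 and 6.23 FPKM, and the short-chain fatty acid receptor gene Ffar2 from 12.2, 11.7 and 13.4 to 32.9, 30.6 and 34.3 FPKM. The class II gene H2-Aa did not pass, with overlapping groups (163, 123 and 227 against 227, 208 and 223 FPKM). The defining genes Xcr1, Clec9a, Cd209a and Siglech stayed at or under 0.340 FPKM in all 6 samples. Irf8, a factor of monocytes and dendritic cells, fell from 26.8, 23.4 and 28.1 to 18.9, 20.9 and 18.1 FPKM.

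Of 21 tested stem cell genes 8 fell and 2 rose, against 12.1% and 14.1% of all genes tested, with a median of -0.19. At an unadjusted p under 0.05 in limma 9 were lower and 6 higher. The summed level of the listed genes did not fall: it was between 2953 and 3290 FPKM without DL1 and between 3309 and 3445 FPKM with it. Hoxa10 passed the filter only through the samples without DL1 and Mycn only through those with it. Hlf, a factor of stem cells, fell from 3.33, 3.34 and 2.7 to 1.08, 1.32 and 1.36 FPKM (-0.87, SE 0.09, adjusted p 3.33e-05). Hoxa9 fell from 8.51, 9.82 and 9.27 to 3.79, 4.81 and 3.91 FPKM, and Hoxa10 from 2.72, 2.21 and 2.41 to 0.365, 0.374 and 0.176 FPKM. Eng, the TGF-beta coreceptor endoglin, fell from 14.3, 14.6 and 14.4 to 7.93, 7.9 and 6.16 FPKM. Below the filter, Mecom, a stem cell factor, was at 0.799, 0.722 and 0.684 FPKM and 0.184, 0.21 and 0.169 FPKM, groups that did not overlap. The 2 that rose were Meis1, by 0.34, and Mycn, a proliferation factor of stem cells, which went from 0.785, 1.09 and 0.829 to 8.81, 6.12 and 10.5 FPKM (2.29, SE 0.17, adjusted p 2.8e-06).

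Among cytokine receptor genes 10 of 21 tested fell and 3 rose, against 12.1% and 14.1% of all genes tested, with a median of -0.29. Among receptors of the cytokines in the medium, Flt3 rose and Kit, the receptor of stem cell factor given above, did not pass. Il6ra fell from 24.8, 20.4 and 23.6 to 14.6, 16.3 and 14.8 FPKM. The shared chain gene Il6st fell from 29.5, 24 and 29.5 to 15.9, 17.3 and 15.6 FPKM. The interleukin-11 receptor gene Il11ra1 is not reported here. Csf3r, the receptor of granulocyte growth factor, fell from 71.9, 70.7 and 77.5 to 45.2, 49.4 and 39.2 FPKM and Ifngr1, a chain of the interferon gamma receptor, from 134, 124 and 136 to 68.5, 76.3 and 69.1 FPKM. Il2rg, the chain shared by lymphocyte interleukin receptors, rose from 79, 73.5 and 81.9 to 108, 111 and 115 FPKM.

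Interferon-stimulated genes were higher in 12 of 17 tested members, against 14.1% of all genes tested, with a median of 0.49. None was lower in limma, also at an unadjusted p under 0.05. Of the 12, Cxcl10 passed the filter only through the samples with DL1. Usp18, a brake on interferon signalling, was at 2.06, 1.48 and 2.18 FPKM without DL1 and 7.02, 5.51 and 5.46 FPKM with it (1.27, SE 0.17, adjusted p 0.00016). Isg15 rose from 3.37, 2.36 and 3.9 to 9.04, 7.16 and 8.87 FPKM and Bst2, which encodes tetherin, from 59.8, 61.8 and 63.7 to 95.6, 90.6 and 100.2 FPKM. The type I receptor gene Ifnar1 fell by 0.30 on the log2 scale.

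Replication and mitosis genes lay slightly higher with DL1, and few passed the test. Of 31 tested, 5 rose, a share near the 14.1% of all genes tested, and none fell. Called or not, 28 of the 31 lay higher, while 7134 of all 11972 genes tested lay higher. Their median was 0.11, against 0.04 over all genes tested, whose balance of directions depends on scaling. At an unadjusted p under 0.05 in limma 12 were higher and 1 lower. In irradiated cultures 27 rose, against 24.5% of all genes tested, with a median of 0.30. No gene list was tested for a difference between the cultures. Mki67, a mark of cycling cells, was at 81.8, 84.8 and 71.2 FPKM without and 95.2, 86.5 and 87.6 FPKM with DL1 and did not pass (0.18, adjusted p 0.0824). Ccnd1, which encodes cyclin D1, rose from 32.4, 30.9 and 34.7 to 40.5, 42.2 and 45.9 FPKM. Cdkn1a, the p53-induced cell cycle inhibitor p21, did not pass (50.8, 43.4 and 59.6 against 52.7, 60.4 and 51.5 FPKM). Of 14 tested p53 targets 2 rose and 1 fell, against 14.1% and 12.1% of all genes tested. The death receptor gene Fas was the member that fell, from 4.84, 3.92 and 5.04 to 2.29, 2.04 and 1.78 FPKM. Of 12 tested megakaryocyte and erythroid genes 6 lay higher and 6 lower, with a median of 0.0072. Against 14.1% and 12.1% of all genes tested, 3 of the 12 rose, led by the integrin gene Itga2b (6.76, 6.98 and 6.67 against 24.8, 21.8 and 28.6 FPKM), and 2 fell, Selp and Hbb-b1. The call of Hbb-b1, one of several near-identical globin genes, was lost without DL1 replicate 3 (adjusted p 0.0528, in a range of 0.00051 to 0.0528 over all alternatives).

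Of 20 genes listed for stromal, endothelial and epithelial cells, 7 passed the filter, and 3 rose and 2 fell. Over all genes tested 14.1% rose and 12.1% fell. Epcam, which rose, passed the filter only through the samples with DL1, and Fn1, which fell, only through those without it. The 3 that rose were the growth factor receptor gene Pdgfrb, at 1.82, 1.32 and 1.88 FPKM without and 8.65, 7.76 and 11.5 FPKM with DL1, the adhesion gene Epcam, at 0.177, 0.141 and 0.362 and 2.45, 1.6 and 2.5 FPKM, and Pecam1, which blood progenitors also express. The collagen genes given above did not move with them: Col1a1 was at 0.0843, 0.0405 and 0.247 FPKM without and 0.118, 0.12 and 0.0556 FPKM with DL1.

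**Figure D4:**
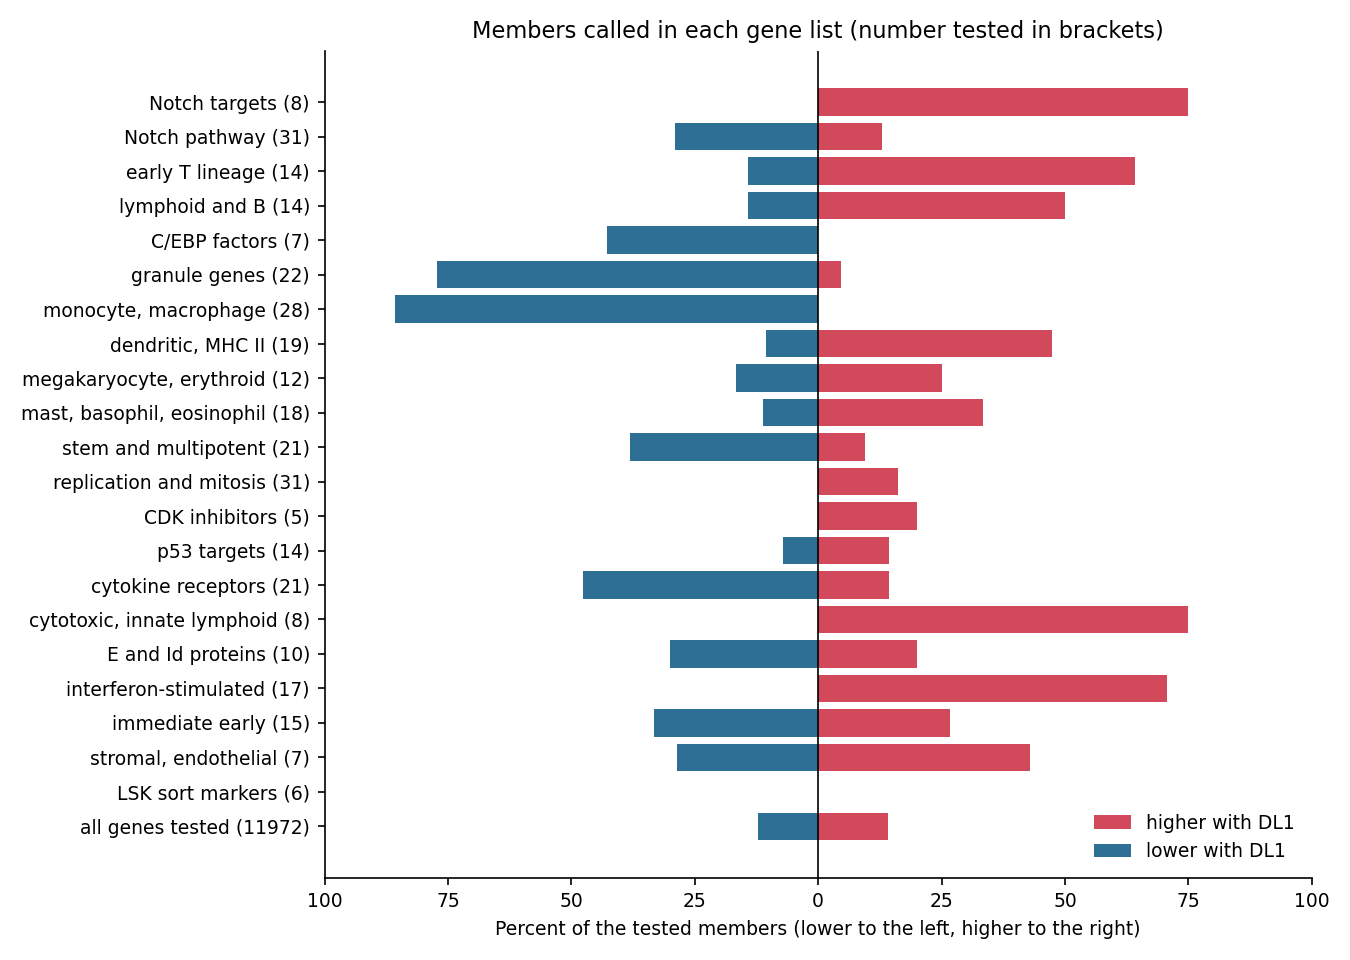
For each gene list, the percent of tested members higher (red, to the right) and lower (blue, to the left) with DL1 in control cultures, with the number tested in brackets and all 11972 tested genes in the last bar. Notch targets and cytotoxic genes reach furthest to the right and monocyte and macrophage genes furthest to the left.

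The same contrast in the irradiated cultures rests on 6 other samples. There, 24.5% of genes were higher and 16.6% lower with DL1. Of the 3137 genes called in control cultures, 2543 were called in the same direction in irradiated cultures, 81.1% of the former and 51.6% of the 4924 calls of the latter, and 6 were called in the opposite direction. Tcf7 had a difference of 2.87 in control and 2.80 in irradiated cultures, Hes1 of 1.27 and 1.0, Gzmc of 4.26 and 4.32, and Fn1 of -3.65 and -4.0. Monocyte and macrophage genes had medians of -1.35 and -1.57.

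The difference between the DL1 effects was tested for every gene, and 8 genes passed (0.0668% of those tested). Taken as control minus irradiated, the difference was positive for 5 (0.0418%) and negative for 3 (0.0251%). Pf4, the chemokine platelet factor 4, was at 68.3, 58.6 and 79.8 FPKM without and 76.9, 74 and 68.7 FPKM with DL1 in control cultures, overlapping groups. In irradiated cultures it was at 201, 186 and 145 FPKM without and 43.1, 47.5 and 61.2 FPKM with DL1, so the samples without DL1 were the high ones. The effects were 0.10 and -1.79, and their difference 1.89 (SE 0.20, adjusted p 0.00955). Ppbp, another platelet chemokine gene, had effects of -0.15 and -2.32. The granule membrane gene Cd63 had effects of 0.03 and -0.78, and the myosin light chain gene Myl10 of 0.64 and -0.81. Hpgd, which breaks down prostaglandins, had -0.29 and 0.85. The other 3 genes were Aqp9, Sgsh and Ap1m2. With the replicate number as a block within control and within irradiated cultures 14 genes passed, among them 5 of the 8. Aqp9, Sgsh and Ap1m2 then did not pass (limma adjusted p 0.0972, 0.0843 and 0.0843). Leaving out control replicate 1, or irradiated replicate 2 with DL1, left none of the 8 past the threshold in limma, with 1079 and 1097 genes at an unadjusted p under 0.05 against 1236 with all samples. Without DL1 replicate 1, 2 or 3 of the control cultures 3 genes passed, and 5 without control replicate 2.

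**Figure D5:**
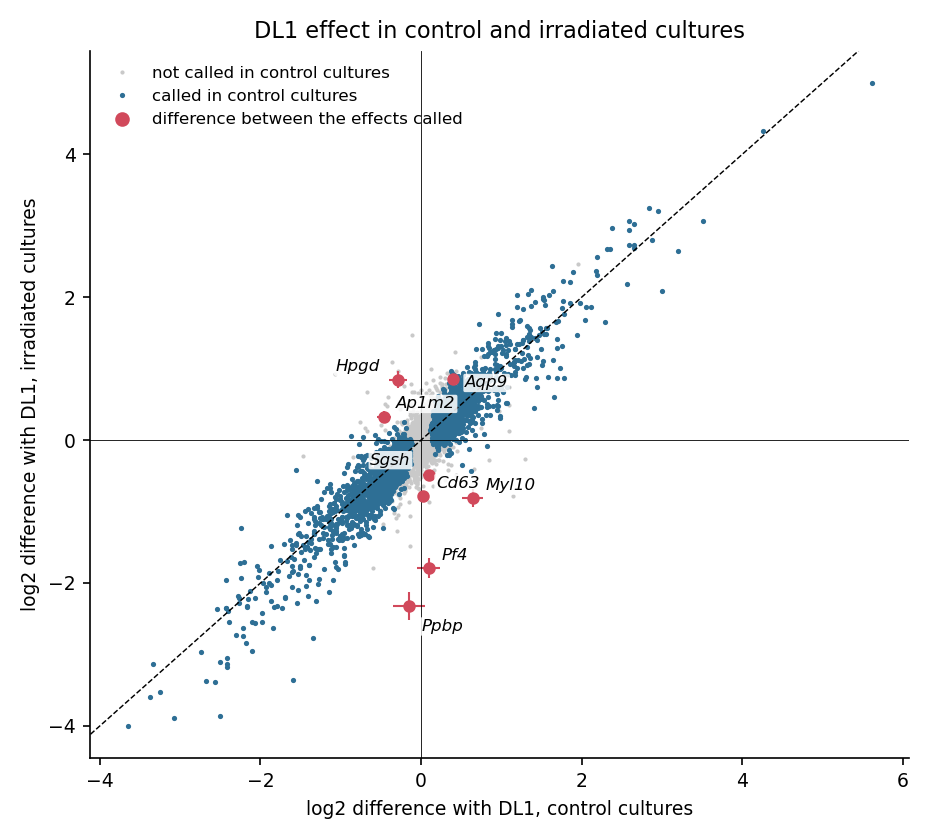
Log2 difference with DL1 in control cultures (horizontal) and in irradiated cultures (vertical) for the 11972 tested genes, with the line of equal effects dashed. Red points, with bars of 1 SE, are the 8 genes whose effects differed, of which Pf4 and Ppbp lie near 0 in control and at -1.79 and -2.32 in irradiated cultures.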

How the data were processed

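The authors deposited 1 table of FPKM for the cultured samples. TopHat 1.4.1, Cufflinks 1.3.0 and Cuffdiff are named in the submitters' processing notes, as is hg19, a human build, for these mouse samples. The annotation and any scaling between libraries are not given in the sources used here, so no coordinates were taken from the table. Names were matched to mouse symbols of RefSeq for 88.68% of 25629 rows.

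The 12 cultured samples entered one limma fit of log2(FPKM + 1), computed here (limma 3.58.1, R 4.3.3). It used a variance trend and Benjamini-Hochberg adjustment over 11972 genes. FPKM carry no counts, so no count test was used. Depth was read from ratios of values under 1 FPKM: 28.5 to 30.7% fell on fractions of up to 5 reads within 0.1% in the control samples, against 0.569 to 0.855% with a shifted step. The fit was also run on simulated data.

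The genes, the comparison and the lists were chosen with earlier results of these data known. Named were the 15 genes that rose and the 15 that fell most without overlap, the 5 smallest p of each list, a fixed set and the 5 smallest adjusted p of the difference. Other genes were named after their values were seen, and some genes are not reported here. Same-numbered samples deviated together in irradiated cultures (correlations of 0.15 to 0.35 across genes) and not in every pair of control cultures. The main fit used no pairing, and the number entered only as a block in alternative fits. The labels do not give the source of the number. Alternatives were other pseudocounts, filters, scalings, variance models, blocks and left-out samples. Control samples carry a source entry that mentions irradiated marrow, but their titles and conditions, followed here, say normal. The column IR1DL1 was assigned to the first irradiated DL1 sample. The freshly sorted cells were not used here.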

Additional observations from a re-analysis of the deposited data

Results flagged for a closer look

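The DL1 effect in control cultures differed from that in irradiated cultures, by the test of the difference itself, for 8 genes. They include Pf4 (control minus irradiated 1.89 on the log2 scale, adjusted p 0.00955), Ppbp (2.17, adjusted p 0.0143) and Myl10 (1.46, adjusted p 0.0143). Cd63 differed by 0.81 (adjusted p 0.0143) and Hpgd by -1.13 (adjusted p 0.0377). The other 3 were Aqp9 (-0.46, adjusted p 0.0464), Sgsh (0.58, adjusted p 0.0468) and Ap1m2 (-0.79, adjusted p 0.0468), which did not pass with the replicate number as a block within control and within irradiated cultures. In control cultures Myl10 rose with DL1, from 6.51, 8.8 and 8.01 to 10.9, 11.9 and 15.4 FPKM, while in irradiated cultures it fell, from 31.1, 37.4 and 32.1 to 19.9, 16.7 and 19.3 FPKM. Ppbp was at 17.8, 12.3 and 19.9 FPKM without and 12.7, 14.7 and 16.9 FPKM with DL1 in control cultures, and at 59.9, 55.3 and 38.3 and 9.09, 7.58 and 11.5 FPKM in irradiated ones. Cd63 was at 94, 91.1 and 98.6 and 94.6, 88 and 108 FPKM in control cultures and at 247, 241 and 214 and 134, 139 and 133 FPKM in irradiated ones. Groups of 3 are too small for a test of single samples that stand apart.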

How the results depend on the processing

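The count of genes higher with DL1 ran from 1044 to 1612 when a control-culture sample was left out, and was 1102 without control replicate 1, 1044 without DL1 replicate 1 and 1098 without DL1 replicate 3, each more than 1.5 times below 1685. The count lower ran from 1127 to 1305. The count for the difference between effects, 8, ran from 0 to 6 over the left-out samples and was 5 with a minimum of 5 FPKM, 15 with a pseudocount of 5, 3 with the replicate number as a block and 14 with a block within control and within irradiated cultures, the last chosen after seeing the data. With the replicate block 1717 genes were higher and 1454 lower. Deviations of samples with the same number correlated at -0.05, -0.03 and 0.10 across genes in control cultures and at 0.22, 0.15 and 0.35 in irradiated cultures. The main fit used no pairing in either. With the block within control and within irradiated cultures 3036 genes were higher and 2020 lower with DL1 in irradiated cultures, against 2933 and 1991 without it. No filter gave 1943 and 1655 genes, the 6 control samples alone 2084 and 1609, and rescaling without ribosomal and small RNA rows 1299 and 1640. Of 135 named genes followed, 109 were called, 105 of them under every alternative, and 8 gained a call under at least 1, namely Ly6a, Itgam, Cd68, Lgmn, S100a8, Spi1, Il7r and Tlr6. Genes that had not passed changed sign as follows. Cd63 was at -0.0119 with median-ratio scaling and -0.00771 in the rescaled table. Over the left-out samples the difference ran from -0.0510 to 0.0955 for Cd63, from -0.00778 to 0.217 for Cdkn1a, from -0.0137 to 0.205 for Pf4, from -0.177 to 1.05 for Cma1, from -0.194 to 1.15 for Tpsb2, from -0.0790 to 0.0270 for Gata2, from -0.116 to 0.0469 for Mcpt8 and from -0.0516 to 0.0365 for Myc. Cebpa and Cebpb lost their calls without a filter (adjusted p 0.0653 and 0.0769), Cebpa without a variance trend (0.0505) and Cebpb with a robust variance model (0.0768). The cause was not tested. FPKM give no counts, and values near 0 rest on few reads.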

Other observations

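Some gene families, chosen after their values were seen, moved in 1 direction or in a mixed one. Some of their members are also in the lists above. Over all genes tested 14.1% rose and 12.1% fell. Toll-like receptors, which sense microbial products, fell in 7 of 10 tested members, with a median difference of -1.12. Of the 7, Tlr5 passed the filter only through the samples without DL1. Tlr4, the receptor for endotoxin, went from 10.7, 8.4 and 9.74 FPKM to 2.95, 3.57 and 3.06 FPKM (-1.34, SE 0.16, adjusted p 6.52e-05), and Tlr2, which binds bacterial lipoproteins, from 23.2, 19.9 and 28.1 to 10, 11.3 and 9.21 FPKM. Among the rest Tlr6 did not pass, and Tlr12 was the member that rose, from 2.31, 2.2 and 2.31 to 4.06, 3.99 and 4.05 FPKM. All 3 tested syndecans, surface proteoglycans, fell, as Sdc4 from 16.3, 15.3 and 20.8 to 2.81, 3.88 and 2.65 FPKM. Hox genes were lower in all 7 tested members, 5 of them past the threshold, while 4838 of all 11972 genes tested lay lower. Of these 5, Hoxa10, Hoxb2 and Hoxb3 passed the filter only through the samples without DL1. Hoxa5, Hoxa7, Hoxa9, Hoxa10 and Hoxb4 are also in the stem cell list, so its counts and those of the Hox genes overlap.

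The Gimap GTPases, which act in lymphocyte survival, rose in all 4 tested members, as Gimap1 from 5.9, 6.66 and 5.67 to 11.3, 11.5 and 12.2 FPKM and Gimap6 from 5.32, 5.25 and 5.35 to 8.31, 9.23 and 8.84 FPKM. Of the 4, Gimap5 passed the filter only through the samples with DL1. The apolipoprotein L genes Apol7a, Apol7c, Apol7e and Apol10b rose too, with Apol7c at 11.6, 9.14 and 17.4 FPKM without DL1 and 72.9, 63.6 and 66.8 FPKM with it. All but Apol7c passed the filter only through the samples with DL1. Of 16 tested integrin subunits 6 rose and 4 fell, against 14.1% and 12.1% of all genes tested. Itgad and Itgae, which rose, passed only through the samples with DL1. Itgae, the CD103 chain that binds E-cadherin, went from 0.926, 0.514 and 1.18 to 7.74, 6.51 and 10.9 FPKM (2.31, SE 0.25, adjusted p 3.33e-05), and Cdh1, which encodes E-cadherin itself, from 5.3, 3.23 and 6.04 to 31.4, 25 and 47 FPKM. Itgb5 fell from 35.4, 29.5 and 43.3 to 11.6, 14.6 and 12.5 FPKM and Itga6, an integrin chain of stem cells, from 48.7, 44.9 and 42.8 to 23.4, 25.6 and 22.9 FPKM. Ccl22, a chemokine of dendritic cells and macrophages, rose from 2.89, 2.62 and 5.53 to 13.6, 14.6 and 15 FPKM.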
